A study of Mus musculus with 2 samples.

Results

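Nr4a1, Nr4a2 and Nr4a3 encode the NR4A orphan nuclear receptors, and open chromatin around these 3 of the 21938 protein-coding genes of GENCODE vM21 was measured by ATAC-seq in LβT2 cells, an immortalized line of mouse gonadotropes. The genes were chosen by name. For each of them, every deposited peak was taken whose summit lay in the gene body or within 100 kb of either end of the gene (GRCm38). This window rule found 18 of the 58519 peaks of replicate 1 and 21 of the 64984 peaks of replicate 2.

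Both samples belonged to 1 group. The cells, at passage 21, had received 2 nM gonadotropin-releasing hormone (GnRH) in 4 pulses, 1 pulse per 2 h, over 6 h 45 min, and were taken 45 min after the final pulse. Each library was made from 4500 cells, in which a transposase cuts and tags accessible DNA. Cells that had not met GnRH were not among these ATAC-seq samples, and what the hormone changes in open chromatin at the Nr4a genes was not measured. The replicates were separate samples with a library each, and whether they came from separate cultures is not stated in the labels. In a bulk assay, a region that is open in fewer cells and a region that is less open in every cell cannot be told apart.

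The NR4A receptors are transcription factors without a known physiological ligand. They are immediate early genes: hormones, growth factors and depolarization raise their transcription within minutes to hours, largely through cAMP and calcium signals that act on CREB and MEF2 factors, and their activity follows from their abundance. Nr4a1 (Nur77) and Nr4a2 (Nurr1) bind DNA as monomers at the NBRE sequence, as dimers at the NurRE, or with the retinoid X receptor, a partner that Nr4a3 (Nor1) does not use. In the pituitary, Nr4a1 is known for the control of Pomc in corticotropes, and GnRH raises its expression in gonadotropes.

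A promoter here is the sequence within 1 kb of any annotated start site of a gene, and a gene's highest promoter peak is given. By this measure the labelled cell type was checked against markers. Of the gonadotrope genes, Lhb, Cga and Gnrhr had a promoter peak in both replicates, Nr5a1 in replicate 2 only, and Fshb and Pitx1 in neither. Of 6 genes of other pituitary lineages (Gh, Prl, Pomc, Tshb, Pou1f1 and Tbx19), 0 had a promoter peak in either replicate, against 32.3% and 44.4% of all coding genes, so that a lack of a peak was common.

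Each peak carries 3 values of the authors' peak caller, namely the fold enrichment at its summit over the background, with 1 tag added to both, and −log10 of its p-value and q-value. The number of tags at the summit was solved from these values and shows how much data lies behind a peak. The background came to 3.05 tags in replicate 1 and 3.54 in replicate 2, the lowest peak of each list held 10 and 11 tags, and the median peak 14 and 16. Where no peak is reported, none was called with this much data and the authors' settings of the peak caller. A summit is called single-copy where the 50 bp centred on it occur at 1 place in the genome, and multi-copy otherwise. By this measure 66.9% of replicate 1 summits and 61.1% of replicate 2 summits were multi-copy.

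Nr4a1 and Nr4a3 each had a promoter peak in both replicates, and the highest peak of either window lay outside the promoter, at −20.4 kb for Nr4a1 and at −1.67 kb and −1.64 kb for Nr4a3, and its difference from the promoter passed the test for Nr4a1 in replicate 2 only. Nr4a2 had no promoter peak in either replicate. In the Nr4a1 window lay 7 peaks of replicate 1 and 8 of replicate 2 (7.5 ± 0.707, mean ± SD, n = 2). The Nr4a2 window held 5 in each replicate, and the Nr4a3 window held 6 and 8 (7 ± 1.41, mean ± SD, n = 2). These counts include weak and multi-copy peaks. With single-copy summits alone the means were 7, 1.5 and 4.5 for Nr4a1, Nr4a2 and Nr4a3, and with a −log10 q of at least 5 they were 5.5, 1 and 2.5, so Nr4a1 had the most and Nr4a2 the fewest either way. With all peaks counted, the numbers were ordinary for a window of this kind: over the windows of all 21938 coding genes the median was 4 peaks in replicate 1 and 6 in replicate 2, and the Nr4a genes lay at the 75.2nd, 59.2nd and 68.0th percentile in replicate 1 and at the 71.1st, 44.3rd and 71.1st in replicate 2. The windows differ in how many other coding genes they hold, with 5 around Nr4a1, 0 around Nr4a2 and 1 around Nr4a3, against a median of 4.

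**Figure D1:**
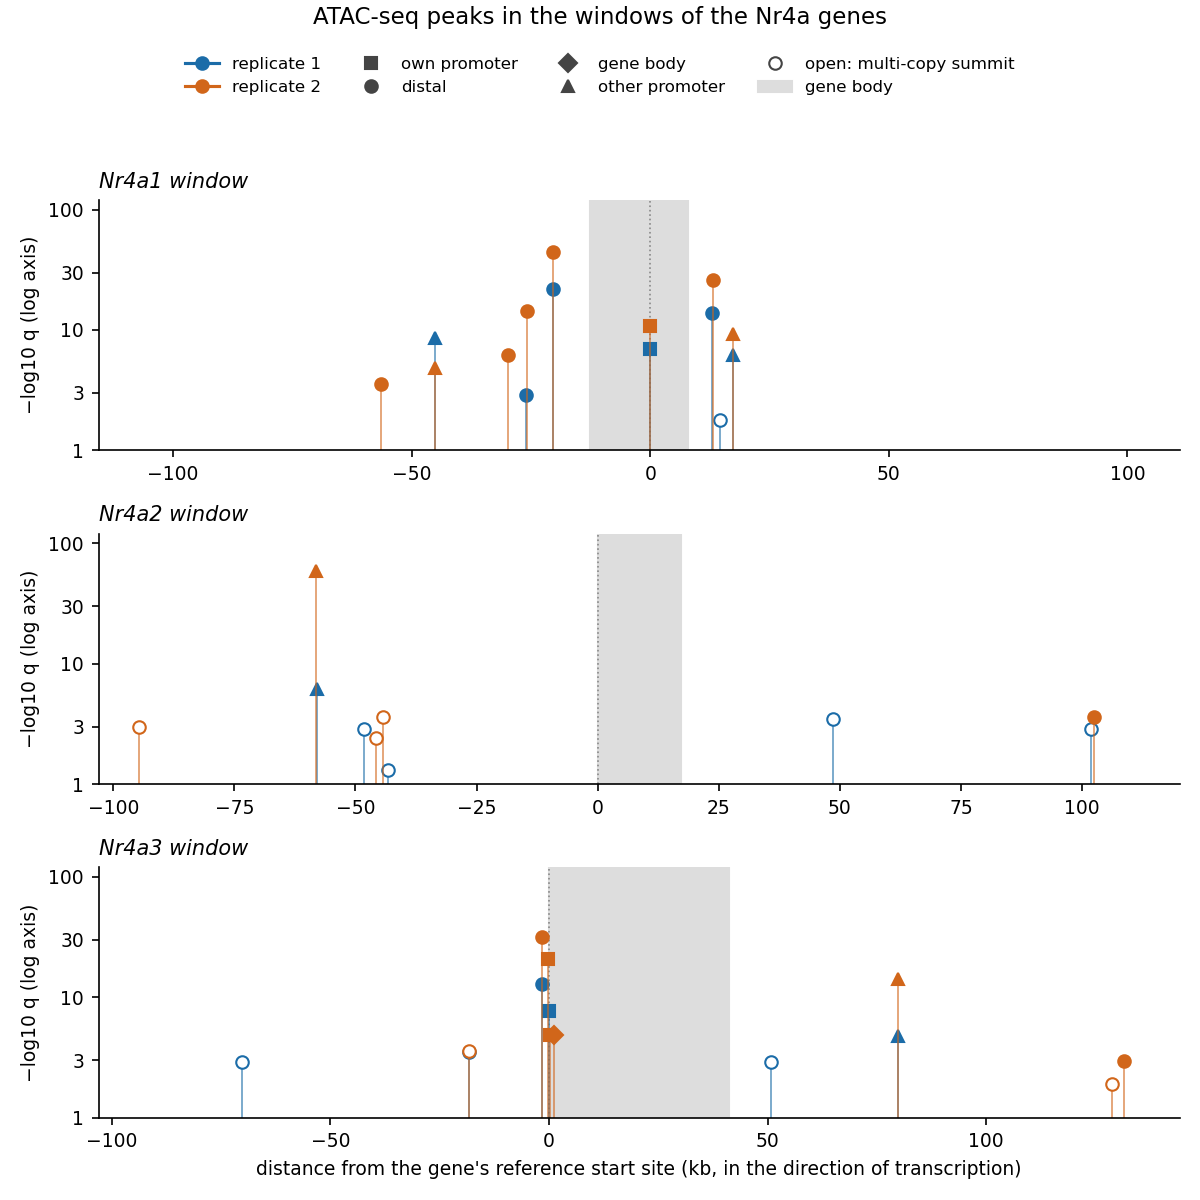
Peaks in the windows of Nr4a1, Nr4a2 and Nr4a3 by the distance of the summit from the reference start site (kb, horizontal axis) and by −log10 q (log vertical axis), with replicate 1 in blue and replicate 2 in orange. Squares are promoter peaks of the gene, triangles promoters of other genes, circles distal peaks and the diamond a gene body peak, open symbols have multi-copy summits, and grey bands are the gene bodies. Nr4a1 and Nr4a3 have peaks at and upstream of the start site in both replicates, while the Nr4a2 gene body and its surroundings held no peak within 37.7 kb of a start site.

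Over the 3 windows, 11 of 18 peaks in replicate 1 had an overlapping partner in replicate 2 (61.1%, exact 95% interval 35.7% to 82.7%), and 11 of 21 in replicate 2 had one in replicate 1 (52.4%, exact 95% interval 29.8% to 74.3%). Over all peaks the same shares were 59.1% and 51.6%, so the Nr4a windows as a whole were close to the background. By gene, 6 of 7 and 6 of 8 peaks were shared at Nr4a1, 4 of 6 and 4 of 8 at Nr4a3, and 1 of 5 in each replicate at Nr4a2. With so few peaks the exact 95% intervals of the genes overlap, in replicate 1 from 42.1% to 99.6%, 22.3% to 95.7% and 0.505% to 71.6% in the same order. Multi-copy summits were 8 of the 18 peaks and 5 of the 21, against 66.9% and 61.1% of all peaks. They were 4 of 5 and 3 of 5 at Nr4a2, near those shares, 1 of 7 and 0 of 8 at Nr4a1, and 3 of 6 and 2 of 8 at Nr4a3. Of the single-copy summits, 100% of 10 in replicate 1 and 62.5% of 16 in replicate 2 were shared, against 66.9% and 49.6% over all single-copy summits. These intervals, like those on tags, cover counting error only.

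Nr4a1 encodes Nur77 and lies on chr15:101254269-101274795 on the plus strand (ENSMUSG00000023034.7), with 3 annotated start sites. Its promoter peak sat at the middle one, 101266846, at chr15:101266549-101267089 in replicate 1 and chr15:101266567-101266988 in replicate 2. The summits lay at −46 bp, in an intron of the transcript from the upstream start, and at 5 bp, in an annotated UTR. No peak lay within 1 kb of the upstream start, 101254269, or of the downstream one, 101272861, and the nearest summits were 7.85 kb and 7.81 kb from the former. The promoter sequence around 101266846 is shown because both summits fall in it, with the NAP element TGCGTCA in capitals, an AP1-like motif named for this promoter. It is taken from RefSeq (GRCm38.p6) and runs from 250 bp before to 50 bp after the RefSeq start.
Nr4a1 promoter, chr15:101266596-101266895, plus strand: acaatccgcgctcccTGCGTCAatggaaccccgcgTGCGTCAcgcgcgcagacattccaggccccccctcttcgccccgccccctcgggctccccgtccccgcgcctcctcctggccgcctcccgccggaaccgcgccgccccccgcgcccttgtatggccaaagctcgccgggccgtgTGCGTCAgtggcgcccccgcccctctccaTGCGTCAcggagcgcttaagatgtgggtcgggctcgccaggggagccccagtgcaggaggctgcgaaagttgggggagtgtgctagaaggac
The NAP element occurred 4 times, all on the strand shown, from −235, −215, −71 and −42 bp. Of 16522 protein-coding promoters of the same 300 bp, 2.74% held the motif on either strand, and 1, that of Nr4a1, held 4 matches. Since the motif is known from this promoter, the count describes it and is no test. Each NAP element contains on its other strand the CRE core TGACG, the binding core of CREB, so the 4 CRE cores of this promoter are the same places.

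The Nr4a1 promoter peak held 19 tags in replicate 1 and 25 in replicate 2, a fold enrichment of 4.94 and 5.73 (mean 5.34 ± 0.562, SD, n = 2). Its −log10 q was 6.97 and 10.8 (mean 8.91 ± 2.74, SD, n = 2). Both replicates were near the middle of all promoter peaks. A promoter peak was present at 32.3% of coding genes in replicate 1, 44.4% in replicate 2 and 30.8% in both, and among the 7084 and 9739 genes with one, Nr4a1 lay at the 50.4th and the 45.0th percentile of −log10 q.

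The highest peak of the Nr4a1 window lay upstream of the gene in both replicates. It was intergenic, at chr15:101246329-101246729 in replicate 1 and chr15:101246122-101246734 in replicate 2, with single-copy summits 43 bp apart at −20.4 kb from the start site of the promoter peak and more than 7 kb before any annotated start of Nr4a1. It held 35 and 57 tags at a fold enrichment of 8.89 and 12.8 (mean 10.8 ± 2.76, SD, n = 2), and its −log10 q reached 21.7 and 44.3. This placed it at the 97.7th and 98.2nd percentile of all peaks of its list, where the Nr4a1 promoter peak was at the 80.1st and 83.0th. The 200 bp centred on the replicate 2 summit are shown because this was the strongest region of the window, with the CRE core in capitals.
Nr4a1 upstream peak, chr15:101246361-101246560, plus strand: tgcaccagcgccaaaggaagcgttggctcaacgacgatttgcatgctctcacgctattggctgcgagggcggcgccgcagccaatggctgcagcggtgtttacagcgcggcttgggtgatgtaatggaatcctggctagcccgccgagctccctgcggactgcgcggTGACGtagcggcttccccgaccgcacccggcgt
The CRE core TGACG occurred 1 time here, and 8.48% and 9.37% of the 200 bp summit windows of the replicates held one. The sequence also held 1 SP1 motif GGGCGG, present in 9.81% and 12.1% of windows, and 2 NFY motifs CCAAT, present in 33.8% and 32.9%. Its GC content was 65%. No NAP element, CRE TGACGTCA, AP1 motif, NBRE AAAGGTCA or SF1 motif TCAAGGTCA was found in this window.

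In tags, the upstream peak exceeded the Nr4a1 promoter peak 1.84 times in replicate 1 and 2.28 times in replicate 2. The log2 ratio of promoter to distal tags was −0.88 in replicate 1 (95% interval −1.77 to −0.04, p = 0.0402, adjusted p = 0.200) and −1.19 in replicate 2 (95% interval −1.93 to −0.49, p = 0.000535, adjusted p = 0.00334), by a two-sided exact binomial test within each library with Benjamini-Hochberg adjustment over all genes tested. The distal peak was the higher in both replicates, and the difference passed the threshold in replicate 2 only. Such an order is not rare: the strongest distal peak of the window was above the promoter peak at 43% of 5816 genes in replicate 1 and at 38.7% of 8287 genes in replicate 2, and the difference passed the test in either direction at 11.4% and 27.6%. Distal peaks were the higher at 278 of these called genes in replicate 1 and 687 in replicate 2. The Nr4a1 ratio stood toward the distal end of all genes, at the 9.03rd and the 6.23rd percentile. The test compares 2 places in 1 library and not conditions, and it takes the strongest of several distal peaks.

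**Figure D2:**
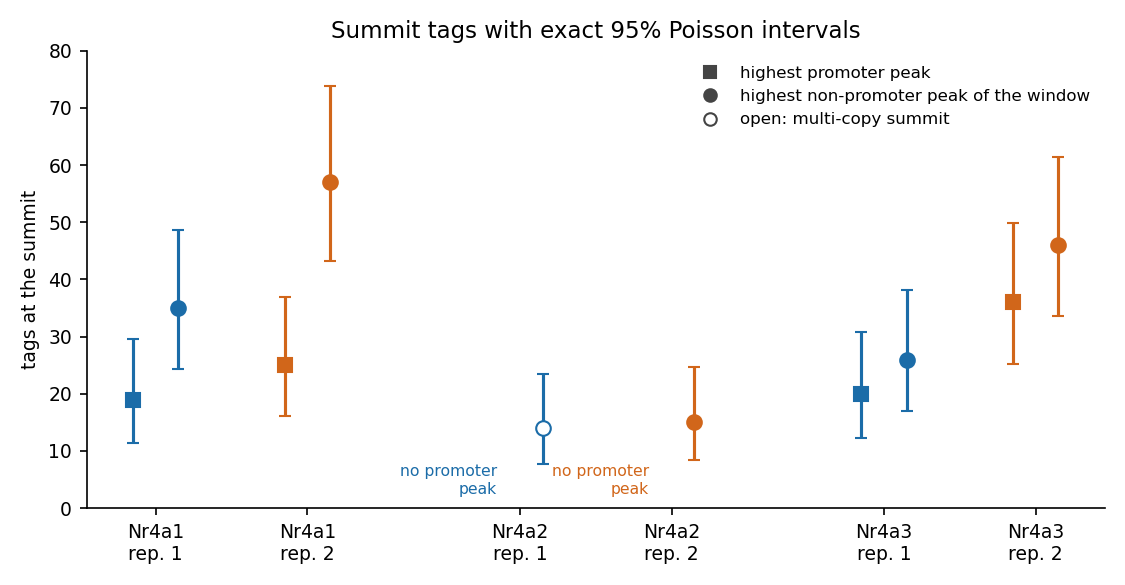
Tags at the summit of the highest promoter peak (squares) and of the highest peak outside promoters in the same window (circles) for each Nr4a gene and replicate (rep.), with exact 95% Poisson intervals. For Nr4a1 the distal summit held 35 and 57 tags against 19 and 25 at the promoter, for Nr4a3 the intervals overlap widely, and Nr4a2 had no promoter peak.

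Further peaks flanked Nr4a1. Downstream, between the end of Nr4a1 and Atg101, a peak at 13.0 kb from the start site (chr15:101279577-101280029 and chr15:101279482-101280029) held 27 and 41 tags, with a −log10 q of 13.8 and 26.1. It was also higher than the promoter peak in both replicates. Upstream, a peak at −26.0 kb and −25.8 kb held 13 and 29 tags, with a −log10 q of 2.88 and 14.3. The remaining distal peaks were found in 1 replicate each. In replicate 2 they lay at −29.8 kb and −56.5 kb, and in replicate 1 at 14.6 kb, on sequence with 5775 copies. The 200 bp at the 13.0 kb summit held none of the 13 motifs searched.

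Promoters of other genes in the Nr4a1 window gave peaks of the same order. Atg101, an autophagy gene, held 18 and 23 tags and the noncoding gene AU021063 held 21 and 17. The coding genes Grasp, Acvr1b, Krt80 and 6030408B16Rik, also in the window, had no promoter peak in either replicate. The Nr4a1 promoter, with 19 and 25 tags, thus lay close to these promoters of its neighbours and below the intergenic peaks at −20.4 kb and 13.0 kb.

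Nr4a3 encodes Nor1 and lies on chr4:48045153-48086447 on the plus strand (ENSMUSG00000028341.9), with 4 annotated start sites. Its promoter peak was at the most upstream start, at chr4:48044417-48045194 in replicate 1, with the summit at −27 bp, and at chr4:48044331-48045153 in replicate 2, with the summit at −281 bp. Replicate 2 had a second, lower promoter peak at 268 bp, with a −log10 q of 4.84. All these summits were single-copy. The promoter sequence is shown for the motif it shares with Nr4a1 and Nr4a2, with the CRE core TGACG, read on either strand, in capitals. The RefSeq start taken for it lies downstream of the GENCODE start used for distances.
Nr4a3 promoter, chr4:48045055-48045354, plus strand: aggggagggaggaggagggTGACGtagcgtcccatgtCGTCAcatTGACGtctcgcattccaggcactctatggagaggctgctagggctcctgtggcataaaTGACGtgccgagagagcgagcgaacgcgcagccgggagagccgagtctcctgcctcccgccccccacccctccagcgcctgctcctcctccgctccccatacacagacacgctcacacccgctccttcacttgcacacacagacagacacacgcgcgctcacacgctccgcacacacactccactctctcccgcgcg
The CRE core occurred 4 times, from −79, −61, −53 and 5 bp of the GENCODE start. No NAP element was found in this window. It holds the replicate 1 summit of the promoter peak but not the replicate 2 summit at −281 bp, so these counts do not cover the sequence there.

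The Nr4a3 promoter peak held 20 tags in replicate 1 and 36 in replicate 2, a fold enrichment of 5.19 and 8.16 (mean 6.67 ± 2.10, SD, n = 2). Its −log10 q was 7.74 and 21.0 (mean 14.4 ± 9.35, SD, n = 2), at the 55.3rd and the 71.6th percentile of promoter peaks. Replicate 2 was the higher on each measure. The order of the promoters was the same in both replicates, Nr4a3 above Nr4a1. Their folds were 5.19 and 4.94 in replicate 1, and 8.16 and 5.73 in replicate 2. The mean folds of 6.67 and 5.34 differed by less than the SD of Nr4a3, but that SD includes the shift between libraries. It does not measure the spread of this contrast, which was not tested.

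**Figure D3:**
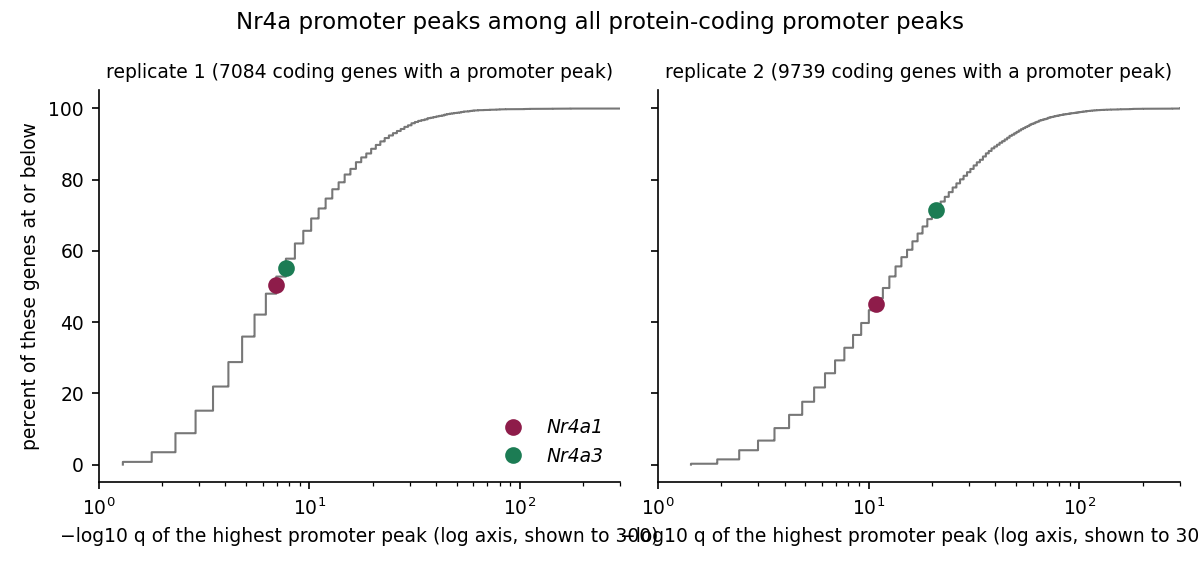
Cumulative percent of protein-coding genes (vertical axis) by the −log10 q of their highest promoter peak (log horizontal axis, shown to 300) in each replicate, with Nr4a1 and Nr4a3 marked. Both lie in the middle of the distribution in replicate 1, at the 50.4th and 55.3rd percentile, and stand at 45.0 and 71.6 in replicate 2. Nr4a2 has no promoter peak and is not drawn.

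A short way upstream of the Nr4a3 promoter lay the highest peak of its window, at chr4:48043410-48043629 in replicate 1 and chr4:48042658-48043883 in replicate 2. The summits, 31 bp apart, were single-copy, intergenic and at −1.67 kb and −1.64 kb, so they fell outside the promoter of 1 kb. The peak held 26 and 46 tags, a fold enrichment of 6.67 and 10.4 (mean 8.51 ± 2.61, SD, n = 2) and a −log10 q of 12.9 and 31.5. The 200 bp centred on the replicate 2 summit are shown for their NAP elements, in capitals.
Nr4a3 upstream peak, chr4:48043412-48043611, plus strand: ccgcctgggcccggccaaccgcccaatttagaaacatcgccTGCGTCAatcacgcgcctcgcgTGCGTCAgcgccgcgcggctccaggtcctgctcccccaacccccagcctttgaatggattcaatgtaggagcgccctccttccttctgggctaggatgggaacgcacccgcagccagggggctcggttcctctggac
The element TGCGTCA occurred 2 times here, both on the strand shown, and each again contains a CRE core. Of all 200 bp summit windows, 0.693% in replicate 1 and 0.783% in replicate 2 held the motif, and 17 of 57979 and 19 of 64466 held 2 or more, a share of 0.0293% and 0.0295%. The motif that marks the Nr4a1 promoter was thus absent from the 300 bp at the Nr4a3 start and present in the peak upstream of it. Whether a factor binds there was not tested.

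At Nr4a3 the promoter and the distal peak did not pass the test against each other. The log2 ratio of promoter to distal tags was −0.38 in replicate 1 (95% interval −1.30 to 0.52, p = 0.461, adjusted p = 0.842) and −0.35 in replicate 2 (95% interval −1.02 to 0.31, p = 0.320, adjusted p = 0.525) by the same exact binomial test. The distal peak was slightly the higher in both replicates, and the intervals include no difference. The result rests on where the promoter ends: with a promoter of 2 kb the upstream peak counts as promoter, the strongest distal peak is a multi-copy one at −18.3 kb and −18.2 kb, and the log2 ratio becomes 0.89 (adjusted p = 0.317, exact binomial test) and 1.62 (adjusted p = 0.000714, exact binomial test).

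Elsewhere in the Nr4a3 window, the promoter of Stx17, which encodes a syntaxin of autophagosomes, held 16 and 29 tags at 79.9 kb and 79.8 kb. A gene body peak at 1.11 kb, in an intron of Nr4a3, was found in replicate 2 only, with 17 tags. The other peaks were multi-copy, apart from 1 in replicate 2 at 132 kb in an intron of Stx17, and the highest of them had a −log10 q of 3.57. Open chromatin with single-copy sequence at Nr4a3 was thus found within 2 kb of its start and, further off, at Stx17.

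Nr4a2 encodes Nurr1, a factor required for midbrain dopamine neurons, and lies on chr2:57106830-57124003 on the minus strand (ENSMUSG00000026826.13), with 4 annotated start sites. None of them had a peak within 1 kb in either replicate, and the gene body held none. The summit nearest to any of its starts was 37.7 kb away in replicate 1 and 44.3 kb in replicate 2. The result was the same with promoters of 500 bp or 2 kb and with RefSeq start sites. Nr4a2 was thus 1 of 11866 coding genes that had no promoter peak in either replicate. The promoter sequence is shown because no peak was detected on it, with CRE cores and 1 match to the MEF2 motif in capitals.
Nr4a2 promoter, chr2:57123954-57124253, minus strand: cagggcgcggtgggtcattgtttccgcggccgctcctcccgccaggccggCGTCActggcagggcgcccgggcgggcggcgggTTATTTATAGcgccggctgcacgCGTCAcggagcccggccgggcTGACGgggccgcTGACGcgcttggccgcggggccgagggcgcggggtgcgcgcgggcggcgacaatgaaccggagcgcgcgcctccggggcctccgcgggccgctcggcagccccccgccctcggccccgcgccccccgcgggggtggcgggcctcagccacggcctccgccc
The CRE core occurred 4 times, from −200, −144, −123 and −111 bp, and the MEF2 match began at −167 bp. A MEF2 motif was present in 2.84% of promoters. The match overlaps a TATA motif TATAAA on the other strand, which 12.8% of promoters held.

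All 50 bp stretches within 1 kb of the Nr4a2 start sites, 100% of 1952 at each, occurred at 1 place in the genome. The promoter had a GC content of 81.7%, at the 99.4th percentile of 16522 promoters, whereas Nr4a1 had 72.3% and Nr4a3 64.7%. Among the 236 promoters within 2.5 percentage points of the Nr4a2 value, 36.4% had a peak in replicate 1 and 53.8% in replicate 2. Why no Nr4a2 promoter peak was found was not tested.

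The other peaks of the Nr4a2 window were weak and mostly repetitive. Outside promoters, it held 4 peaks in each replicate, with 10 to 14 tags in replicate 1 and 13 to 15 in replicate 2, and none of them was shared. The strongest had a −log10 q of 3.49 and 3.57, which lay at the 39.6th and the 28.5th percentile of the strongest distal peaks of genes without a promoter peak. Among single-copy distal summits, which Nr4a2 had in replicate 2 only, it lay at the 58.2nd. All of those in replicate 1 were multi-copy, with up to 6247 copies. In replicate 2, the 1 single-copy summit outside promoters lay at 102 kb in sequence that was 100% repeat-masked.

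The only peak of the Nr4a2 window found in both replicates lay at −57.9 kb and −58.1 kb, at chr2:57181524-57182409 in replicate 1 and chr2:57181255-57182475 in replicate 2. It covers the start sites of a divergent pair of noncoding genes, BB557941, which runs toward Nr4a2 and ends before it, and 4930555B11Rik, which runs away. RefSeq also places 2 tRNA genes there, a glycine tRNA (anticodon GCC) and an alanine tRNA (anticodon CGC). The summit lay in an exon of 4930555B11Rik, 225 bp from the alanine tRNA gene, in replicate 1, and in an intron, 8 bp from that tRNA gene, in replicate 2. The summits of the replicates were thus 217 bp apart, near the noncoding start in replicate 1 and beside the tRNA gene in replicate 2. The 200 bp centred on the replicate 2 summit are shown for the tRNA gene they hold, with its 72 bp in capitals.
Nr4a2 upstream peak, chr2:57181970-57182169, plus strand: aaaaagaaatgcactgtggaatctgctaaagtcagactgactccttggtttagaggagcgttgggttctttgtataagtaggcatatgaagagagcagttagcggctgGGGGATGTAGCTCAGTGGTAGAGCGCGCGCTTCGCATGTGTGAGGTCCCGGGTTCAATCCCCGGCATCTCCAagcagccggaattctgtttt
None of the 13 motifs searched was found in these 200 bp.

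This peak held 18 tags in replicate 1 and 69 in replicate 2, a fold enrichment of 4.69 and 15.4 (mean 10.1 ± 7.60, SD, n = 2) and a −log10 q of 6.22 and 59.3. It was the highest peak of the 3 Nr4a windows in replicate 2 and an intermediate one in replicate 1. The ratio of the folds, 3.29, was at the 99.5th percentile of the 11414 overlapping pairs with single-copy summits, whose median was 1.34. Among the 711 such pairs within 5% of its fold in replicate 1, it was at the 99.9th percentile. The 34 single-copy pairs on tRNA genes, among them this one, had a median ratio of 1.55, against 1.34 over 11370 pairs on none, and no other of the 34 had a ratio this high. A peak overlapped 65 of 403 tRNA genes in replicate 1 (16.1%) and 135 in replicate 2 (33.5%). The share of all coding genes with a promoter peak was also higher in replicate 2, at 44.4% against 32.3%. The cause of the difference between the replicates was not tested.

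**Figure D4:**
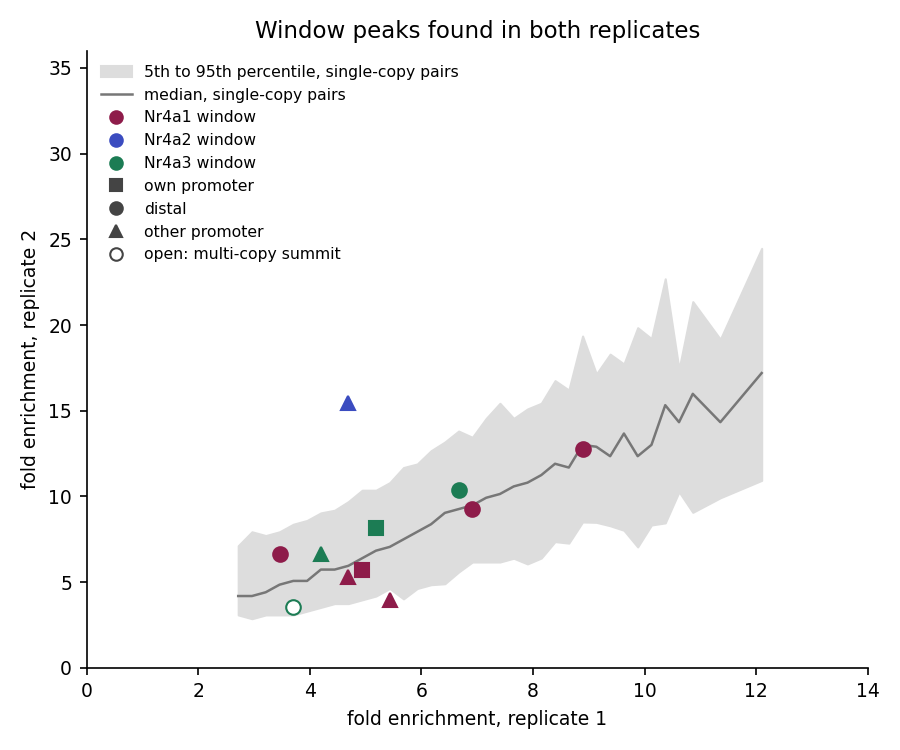
Fold enrichment in replicate 1 (horizontal axis) and replicate 2 (vertical axis) of the 11 pairs of overlapping peaks in the Nr4a windows, coloured by gene and shaped by class, with the multi-copy pair open. The line is the median and the band the 5th to 95th percentile of replicate 2 over pairs of single-copy peaks with the same fold in replicate 1. The Nr4a2 window's shared peak, at 4.69 and 15.4, lies above the band.

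The other shared peaks of the Nr4a windows had fold ratios of replicate 2 to replicate 1 between 0.731 and 1.91. The Nr4a1 promoter, at 1.16, and the Nr4a1 upstream peak, at 1.44, stood at the 31.6th and 58.8th percentile of single-copy pairs. The Nr4a3 promoter and its upstream peak, at 1.57 and 1.55, stood at the 69.8th and 68.5th. These regions therefore moved between replicates much as other peaks did. The lowest ratio was that of AU021063 in the Nr4a1 window, at the 1.63rd percentile.

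The promoters of all 3 Nr4a genes held 4 CRE cores each. The motif TGACG was present in 24.0% of promoters, and 58 of 16522 (0.351%) held 4 or more. The number was therefore the same at the promoters with a peak and at the one without. The full CRE TGACGTCA, present in 2.30% of promoters, was found at none of the 3. The SP1 motif GGGCGG, present in 47.5%, occurred 3, 5 and 1 times at Nr4a1, Nr4a2 and Nr4a3. None of the 3 held an AP1 motif (TGACTCA or TGAGTCA, 4.60% of promoters), a CArG box (1.51%), the EGR1 motif GCGTGGGCG (0.805%), the NBRE AAAGGTCA (1.30%), the SF1 motif TCAAGGTCA (0.345%), the ETS core CCGGAAG (12.2%) or the NFY motif CCAAT (38.6%). All motifs were searched as exact matches on both strands, and a match is a description of the sequence only.

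Among the other nuclear receptors, 11 of 46 had a promoter peak in replicate 1 (23.9%, against 32.3% of all coding genes), 23 in replicate 2 (50%, against 44.4%) and 11 in both (23.9%, against 30.8%). Nr4a1 and Nr4a3 were thus among the receptors with a peak in both replicates, and in replicate 1 Nr4a1 stood at the median of the others with a peak, 6.97. In replicate 1, 4 of the 46 were above Nr4a1 and 3 above Nr4a3, and in replicate 2 the numbers were 6 and 3. Above Nr4a3 in both replicates were Nr1d2, a heme receptor of the circadian clock, with a −log10 q of 80.1 and 82.0, the thyroid hormone receptor gene Thrb with 21.7 and 39.5, and Esrra, an estrogen-related receptor, with 15.7 and 25.1. Rorb and Nr1h3, each with 6.97, were level with Nr4a1 in replicate 1. Nr4a2, with no peak, stood with the 23 receptors that had none in replicate 2.

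**Figure D5:**
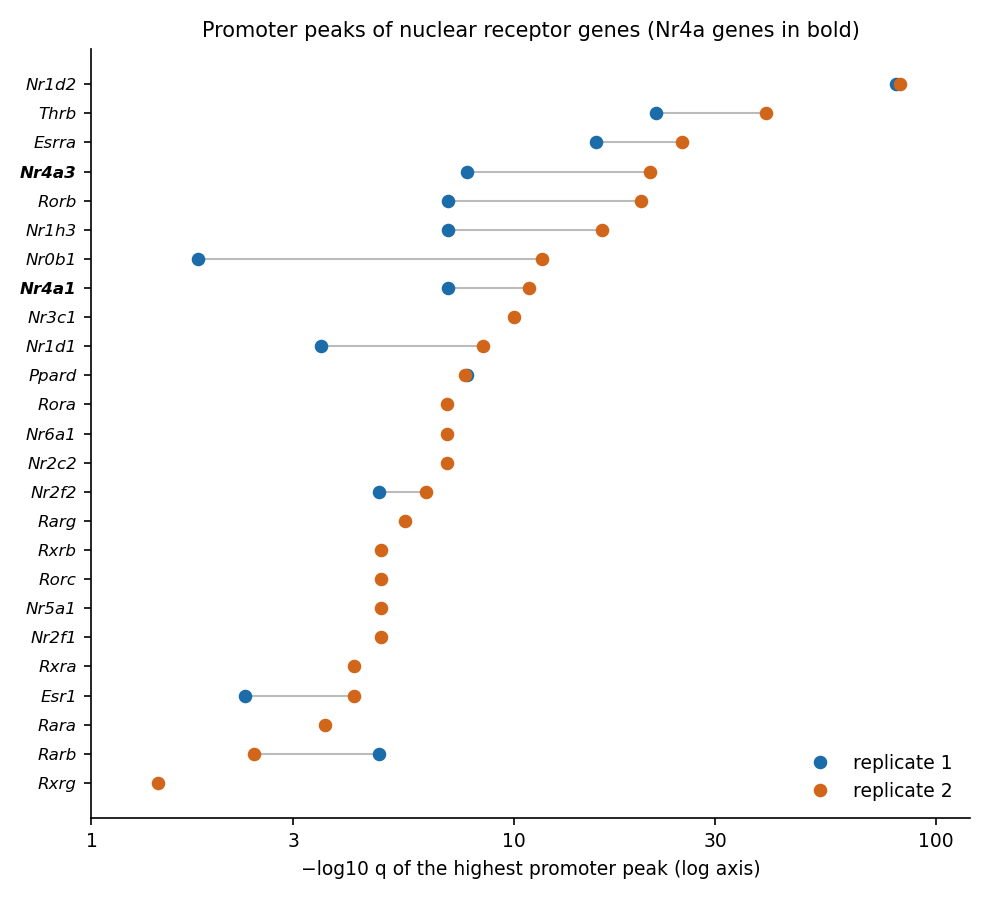
The −log10 q of the highest promoter peak (log horizontal axis) of each nuclear receptor gene with a promoter peak, for replicate 1 in blue and replicate 2 in orange, ordered by replicate 2. A gene with a single orange point had a peak in replicate 2 only. Nr4a3 and Nr4a1, in bold, lie in the upper part of the list, and Nr4a2 is not drawn because it had no peak.

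Genes known to work with the Nr4a receptors were described from a list of 36 in order of their roles. Of these, 12 had a promoter peak in replicate 1, 22 in replicate 2, 12 in both and 14 in neither, shares of 33.3%, 61.1% and 33.3% for replicate 1, replicate 2 and both, against 32.3%, 44.4% and 30.8% of all coding genes. The DNA-binding factors upstream of the Nr4a genes had a peak for 6 of 9 in replicate 1 (66.7%, against 32.3% of all coding genes) and 7 of 9 in replicate 2 (77.8%, against 44.4%). These shares were not tested. Creb1, the cAMP-responsive factor, had a −log10 q of 15.7 and 64.5, Srf, the serum response factor, 13.8 and 16.1, and Mef2a 6.97 and 14.3. Mef2c and Mef2d had none.

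Of the kinases, phosphatases and cofactors that carry cAMP, calcium and MAP kinase signals, 4 of 12 had a peak in replicate 1 (33.3%, close to the 32.3% of all coding genes) and 8 in replicate 2 (66.7%, against 44.4%). They included Ppp3ca, a catalytic subunit of calcineurin, with a −log10 q of 12.9 and 24.0, and Prkaca, a catalytic subunit of protein kinase A, with a peak in both. Of the class IIa deacetylases, which hold MEF2 factors in check, 1 of 4 had a peak in replicate 1 (25%, against 32.3% of all coding genes). In replicate 2 the number was 2 (50%, against 44.4%). Hdac4 had a −log10 q of 37.6 and 67.1, Hdac5 had 1.91 in replicate 2 only, and Hdac7 and Hdac9 had no peak. The dimer partners Rxra, Rxrb and Rxrg had a peak in replicate 2 only, at 4.19, 4.84 and 1.43. These partner promoters were weaker than those of Nr4a1 and Nr4a3 in the same replicate.

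Among factors that share or oppose Nr4a sites, Nr5a1 (SF1) had a peak in replicate 2 only, at 4.84, and Nr0b1 (Dax1) had 1.79 and 11.7, while Nr0b2 had none. Of the 5 known targets of the Nr4a receptors in other cell types, Pomc, Star, Cyp21a1, Th and Slc6a3, 0 had a promoter peak in either replicate, where 32.3% and 44.4% of all coding genes had one.

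Because tags are whole numbers, many genes share the values of an Nr4a promoter. Of 6750 other coding genes with a promoter peak in both replicates, 18 had exactly the values of Nr4a1, among them, in alphabetical order, Bmp2k, Btf3l4 and Copb2. Another 24 had exactly those of Nr4a3, beginning with 2510002D24Rik, Aldh7a1 and Arc. The likeness was taken as the distance between percentiles over the 2 samples, and says nothing of shared function.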

How the data were processed

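ATAC-seq libraries of LβT2 cells, 2 replicates of 1 group, were processed by the authors, who mapped reads to GRCm38 with Bowtie2, removed duplicates and ran MACS2 on either replicate with an extension of 200 bp and the genome size option for Drosophila (dm). The effect of that genome size on the background and on which peaks were called was not tested. Versions were not given in the sources used here. Per peak, the authors deposited a score, which is 10 times −log10 q as a whole number, a fold enrichment (a ratio to the background, with 1 added to the tags and to the background), and −log10 of the p-value and q-value. Other deposited columns give start, end and summit.

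Tags per summit and the background were solved from fold and p-value under a Poisson model, with a largest error in −log10 p of 0.000146. Copies of the 50 bp at each summit were counted over the genome. Distal peaks lay outside 1 kb of any GENCODE vM21 start site. Peaks overlapping by at least 1 bp were called shared. Promoter and strongest distal tags were compared by exact binomial test for every coding gene with both, with Benjamini-Hochberg adjustment over all genes of a replicate and an adjusted p of 0.05 as threshold. The plan had named the 6 Nr4a tests alone for the adjustment. The work used scipy 1.17.1, numba 0.67.0, numpy 2.4.6, matplotlib 3.10.9 and pandas 2.3.3 under Python 3.11.15, and the measures were tested on simulated data.

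The members and gene lists were chosen with earlier results of these data known. Named were the members, genes whose promoter holds a window peak in both replicates, the 3 nearest genes by percentile, and lists of Nr4a pathway genes, nuclear receptors and pituitary markers. The tRNA genes, the other coding genes of the Nr4a1 window, and the receptors, pathway genes and motifs singled out from their lists were picked after their values were seen. Alternatives concerned the threshold on q, window, overlap, promoter width, start sites, copy number, ranking and leaving out either replicate. Reads and fragment sizes were not analysed here.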

Additional observations from a re-analysis of the deposited data

How the results depend on the processing

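Of 76 alternatives to the values above, 59 were the same, 15 moved and 2 reversed. Same means a number of peaks within 1.5 times the value above, a mean within 1 SD, a share within its 95% interval, or a test with the same direction and call. With 2 replicates, either alone always lies within 1 SD of their mean. Leaving out a replicate thus could not move the promoter −log10 q or its percentile. Ranking by fold keeps the order by −log10 q, because each replicate has 1 background. The 59 therefore include settings whose outcome was fixed in advance. Where −log10 q had to reach 5, peaks per window averaged 1 for Nr4a2 and 2.5 for Nr4a3, and where it had to reach 10 they averaged 3 for Nr4a1, 0.5 for Nr4a2 and 2 for Nr4a3. A window of 50 kb gave 2.5 for Nr4a2, and one of 200 kb gave 15.5 for Nr4a1 and 8.5 for Nr4a2. With single-copy summits alone, the mean was 1.5 for Nr4a2 and 4.5 for Nr4a3, and 100% of the window peaks of replicate 1 were shared. With genes without a peak ranked at 0, the mean percentile was 79.8 for the Nr4a1 promoter and 86.5 for that of Nr4a3, and ranked by peak width it was 53.7 and 83.1.

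A promoter of 2 kb reversed the Nr4a3 comparison, to a log2 ratio of 0.89 in replicate 1 and 1.62 in replicate 2 (adjusted p = 0.317 and 0.000714, exact binomial test), because the upstream peak then belongs to the promoter. The mean promoter −log10 q of Nr4a3 then rose from 14.4 to 22.2. This was counted as the same only because the SD of the replicates was as wide as 9.35. Over the other settings the adjusted p of Nr4a1 was 0.167 to 0.209 in replicate 1, and 0.00299 to 0.00367 in replicate 2. Leaving out either replicate gave 7 to 8 peaks for Nr4a1 and 6 to 8 for Nr4a3, a promoter −log10 q of 6.97 to 10.8 and 7.74 to 21.0, and percentiles of 45.0 to 50.4 and 55.3 to 71.6.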
